A study of Homo sapiens with 3 samples.

Results

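Kinesins are the motor proteins that walk along microtubules, and the centromere proteins build the platform on each chromosome to which those microtubules attach. The genes described here were all protein-coding genes of the array whose symbol begins with KIF and a digit, KIFC, CENP, AURK, BUB, PLK and a digit, SKA and a digit, or SPC2, with 1 probe set per gene, the one of highest mean. This rule found 72 genes among 11916 named protein-coding genes. Of these, 42 were kinesins and 30 were centromere, kinetochore or mitotic kinase genes, and 65 lay above a floor on low values. The floor, which at least 1 array had to reach, was 3.89 log2, the median over every probe set. The members below it were KIF5A, KIF5C, KIF6, KIF9, KIF17, KIF25 and KIF26B, and 0 of the 15 mitotic kinesins were among them. The 65 others reached the floor on every array. The genes CENPB, CENPE, CENPF, CENPS, SPC24 and SPC25, among the 12 reference genes of the rule with no named probe set, were not analysed here.

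The cells were MDA-MB-231, a long-established line from a human triple-negative breast cancer. They were kept for 72 h in 10 µM CFX, in 10 µM Mt-CFX, or in 1% DMSO as the vehicle control. A DMSO content is given for the control alone. Ciprofloxacin, a fluoroquinolone antibiotic, appears in the title of the series, and for Mt-CFX the labels give a code name alone. Each condition was 1 array of 1 line, so there is no replicate error, no test was possible and no p-value is given. Every difference below is a difference between arrays that was not checked against the spread between repeats. As markers of the line, VIM stood at 9.17 log2 and AXL at 10.97 log2 in the control, while the hormone receptor genes ESR1 and PGR were at 3.81 and 2.39 log2 there. Of these receptor genes ESR1 reached the floor with CFX, at 3.92 log2. Other luminal and epithelial genes on the list lay above the floor in the control, with KRT18 at 8.36, KRT19 at 6.12, KRT8 at 5.83, GATA3 at 5.52 and EPCAM at 5.37 log2. ERBB2 was not analysed here. Exact ties were common: 45.3% of the 8868 protein-coding genes above the floor had the same value on all 3 arrays, and 26.2% of the 65 members did. A tie is a property of the summarised values and does not show that a transcript was at the same level.

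In a dividing cell, the mitotic kinesins push spindle poles apart, move and align chromosomes, trim microtubule ends and complete the cut between the daughter cells. The transport kinesins carry vesicles, organelles and protein complexes along microtubules, largely outside mitosis. Inner centromere proteins sit on the CENP-A nucleosome and hold the outer kinetochore, and the Aurora, Polo-like and BUB kinases time and check the attachment. Transcripts of many mitotic genes are most abundant late in the cell cycle. Their promoters often carry a CCAAT box and a cell cycle homology region, abbreviated CHR.

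Promoters are shown because most mitotic kinesins share letters that most transport kinesins lack. The sequences are RefSeq windows of build GRCh38.p14, from 250 bases before to 50 bases after each gene's start, 5′ to 3′ on the gene's strand. The search covered both strands for TTTGAA and TTCGAA (CHR), CCAAT, and GGCGGGA and TTTGGCG (E2F-like), and capitals mark every match. Matches of different motifs overlapped 0 times in the members' promoters. The first 4 belong to the mitotic kinesins of lowest difference with Mt-CFX, KIF18B (chr17:44947724-44948023, minus strand), KIF4A (chrX:70289854-70290153, plus), KIF11 (chr10:92592880-92593179, plus) and KIF20A (chr5:138178862-138179161, plus).
KIF18B: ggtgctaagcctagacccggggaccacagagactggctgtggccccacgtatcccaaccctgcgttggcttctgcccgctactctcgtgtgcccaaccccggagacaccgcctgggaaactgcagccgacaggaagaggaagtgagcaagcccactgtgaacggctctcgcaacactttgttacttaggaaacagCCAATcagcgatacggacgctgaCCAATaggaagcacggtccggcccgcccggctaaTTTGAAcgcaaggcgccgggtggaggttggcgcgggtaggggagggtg
KIF4A: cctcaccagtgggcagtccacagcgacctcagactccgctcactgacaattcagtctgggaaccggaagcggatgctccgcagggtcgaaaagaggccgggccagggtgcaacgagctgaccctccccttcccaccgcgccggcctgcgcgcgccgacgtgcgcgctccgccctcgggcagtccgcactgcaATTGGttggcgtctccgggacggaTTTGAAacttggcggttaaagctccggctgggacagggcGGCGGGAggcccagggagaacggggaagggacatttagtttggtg
KIF11: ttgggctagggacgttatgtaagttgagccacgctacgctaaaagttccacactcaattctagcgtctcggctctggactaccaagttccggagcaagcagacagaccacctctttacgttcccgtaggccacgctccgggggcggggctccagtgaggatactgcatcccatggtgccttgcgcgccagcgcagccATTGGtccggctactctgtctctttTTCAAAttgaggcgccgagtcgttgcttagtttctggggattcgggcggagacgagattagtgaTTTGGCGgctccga
KIF20A: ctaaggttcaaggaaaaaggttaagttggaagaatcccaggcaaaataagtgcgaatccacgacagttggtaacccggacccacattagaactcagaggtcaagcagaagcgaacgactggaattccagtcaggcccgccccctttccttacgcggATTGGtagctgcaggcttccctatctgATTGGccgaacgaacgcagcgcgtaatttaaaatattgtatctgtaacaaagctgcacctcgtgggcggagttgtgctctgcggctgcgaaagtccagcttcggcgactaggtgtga
The kinase gene PLK4 (chr4:127880643-127880942, plus) differed most between the compounds among the members, and KIF5B (chr10:32056376-32056675, minus) and KIF1C (chr17:4997700-4997999, plus) are transport kinesins for contrast.
PLK4: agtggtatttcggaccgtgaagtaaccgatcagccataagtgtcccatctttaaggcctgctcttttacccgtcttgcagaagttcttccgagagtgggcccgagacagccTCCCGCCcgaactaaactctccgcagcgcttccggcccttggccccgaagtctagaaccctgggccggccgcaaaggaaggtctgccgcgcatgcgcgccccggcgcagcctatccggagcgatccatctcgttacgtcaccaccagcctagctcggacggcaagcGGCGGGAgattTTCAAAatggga
KIF5B: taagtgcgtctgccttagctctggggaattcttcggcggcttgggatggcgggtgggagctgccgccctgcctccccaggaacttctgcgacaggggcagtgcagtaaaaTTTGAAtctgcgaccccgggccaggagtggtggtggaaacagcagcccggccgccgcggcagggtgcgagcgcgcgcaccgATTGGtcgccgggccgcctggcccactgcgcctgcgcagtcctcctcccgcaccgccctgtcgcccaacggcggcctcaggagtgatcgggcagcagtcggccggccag
KIF1C: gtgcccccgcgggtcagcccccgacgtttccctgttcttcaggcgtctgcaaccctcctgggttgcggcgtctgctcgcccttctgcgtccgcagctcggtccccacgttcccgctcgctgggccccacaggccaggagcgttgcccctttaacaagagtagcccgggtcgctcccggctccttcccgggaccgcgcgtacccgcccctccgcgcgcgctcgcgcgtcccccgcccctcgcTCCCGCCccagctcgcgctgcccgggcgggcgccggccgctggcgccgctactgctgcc

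In KIF4A and KIF11 the CCAAT box, read on the opposite strand, lies shortly before the CHR letters, at window bases 193 to 197 and 217 to 222 in KIF4A and 198 to 202 and 223 to 228 in KIF11. KIF18B has 2 CCAAT boxes and a CHR match just past its start, and KIF20A has 2 CCAAT boxes and no CHR match to these letters. Among the 15 mitotic kinesins, 11 promoters (73.3%) held a CHR match and 11 (73.3%) a CCAAT box. Of 15843 protein-coding promoters of the same length, 13.5% held a CHR match and 36.4% a CCAAT box. Of the 11 transport kinesins with a promoter in the table, 1 held a CHR match, KIF5B, and 3 held a CCAAT box. The E2F-like letters were in 6 mitotic (40.0%) and 3 transport kinesin promoters (27.3%), against 22.5% of all promoters. Among the 12 inner centromere genes with a promoter in the table, 5 held a CHR match and 8 a CCAAT box. A match describes these letters and is not evidence of binding.

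With Mt-CFX most mitotic kinesins were lower than in the vehicle control, while most transport kinesins were equal or nearly so. Over the 15 mitotic kinesins the median difference was −0.12 log2, with 10 lower, 1 higher and 4 equal. The lower ones include KIF4A and KIF4B, which may not be separate measurements. Over the 12 transport kinesins above the floor it was 0.00, with 3 lower, 4 higher and 5 equal, so the mitotic median minus the transport median was −0.12 log2. Across all 8868 genes the median was 0.00, and 23.2% were lower and 23.9% higher. The transport median is an exact tie, and ties do not show equal transcript levels. Equal on all 3 arrays were 41.7% of the transport kinesins, 20.0% of the mitotic kinesins and 45.3% of all genes. KIF18B, KIF4A, KIF11 and KIF20A led the mitotic class, with Mt-CFX values between 67.9% and 77.9% of the control. Because the samples are bulk cultures, fewer cells in late cell cycle stages and less transcript per cell cannot be told apart.

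KIF18B, a motor that shortens the microtubules reaching from the spindle to the cell edge, was at 7.89 log2 in the control, 7.83 with CFX and 7.33 with Mt-CFX. The Mt-CFX array was lowest, at −0.56 log2 from the control, and CFX was at −0.064. KIF4A, a chromosome-bound motor that shapes chromosomes and the anaphase midzone, was at 7.86, 7.64 and 7.32 log2 in the same order. Its differences were −0.21 with CFX and −0.54 with Mt-CFX, and no other member lay as far below the control with CFX. KIF4B, a close copy of KIF4A whose probes may read the same transcripts, was at 6.45, 6.40 and 6.20 log2.

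KIF11, the motor that pushes centrosomes apart to form a bipolar spindle, was at 9.60 log2 in the control, 9.67 with CFX and 9.20 with Mt-CFX. CFX lay slightly above the control and Mt-CFX below it, at −0.40 log2 or 76.0% of the control. KIF20A, KIF20B and KIF23 act at the midzone and in the final separation of the daughter cells. KIF20A was at 8.18, 8.22 and 7.82 log2 on the control, CFX and Mt-CFX arrays, KIF20B at 8.70, 8.84 and 8.52, and KIF23 at 9.13, 9.14 and 9.04. Mt-CFX was the lowest array for all 3, with differences from the control of −0.36, −0.18 and −0.085 log2.

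The other lower mitotic kinesins had small differences. KIFC1, which clusters the extra centrosomes common in cancer cells, was at 7.45 log2 in the control and with CFX and at 7.27 with Mt-CFX. Its 4 probe sets differed from the control by −0.18, −0.15, −0.15 and 0.00 log2, the last at 3.96 log2 on all arrays, close to the floor. The probe sets at −0.15 had identical values on each array, so they may not be separate measurements. KIF14, a cytokinesis motor, differed by −0.12 with Mt-CFX, and KIF22, which pushes chromosome arms away from the poles, by −0.026 log2. The equal members were KIF15, KIF18A, KIF2A and KIF2C with Mt-CFX. KIF2A and KIF2C take microtubules apart at their ends, KIF15 holds spindle fibres together, and KIF18A dampens chromosome movement at the metaphase plate. KIF18A was the only one of these 4 to differ with CFX, at 7.67 log2 against 7.53. KIF2B was at 4.13 log2 in the control, near the floor, and at 4.16 on both compound arrays.

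**Figure D1:**
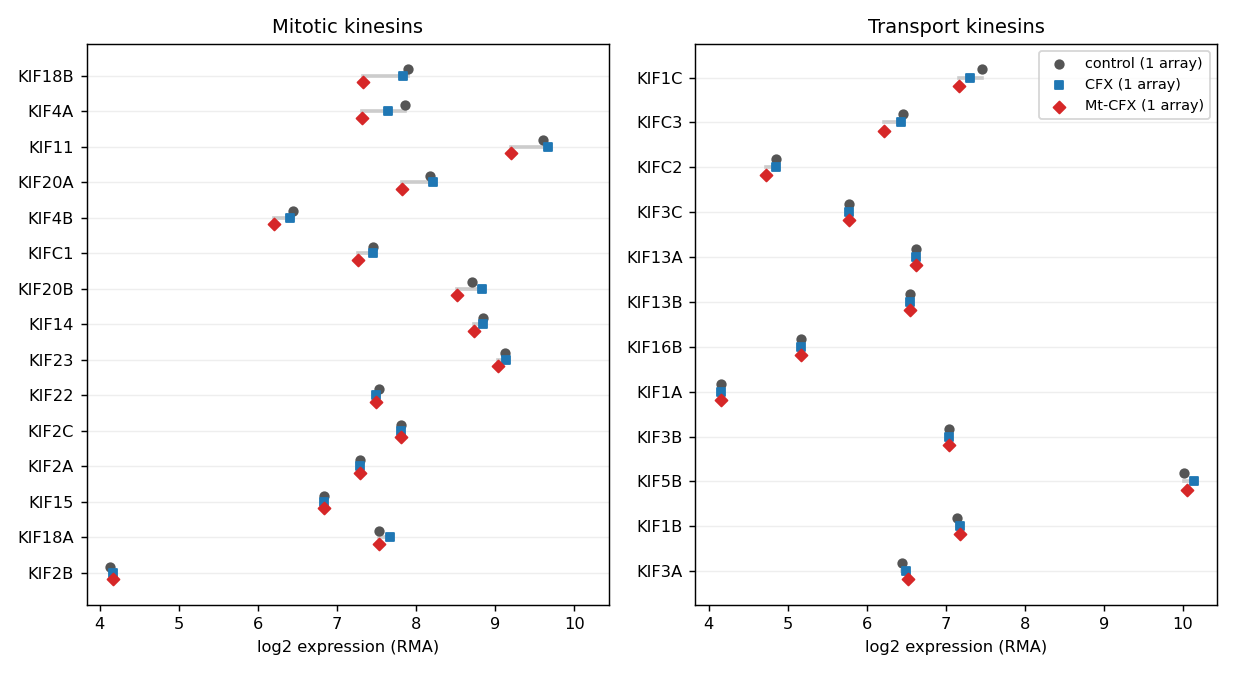
Level of each mitotic kinesin (left) and transport kinesin (right) above the floor on the 3 arrays, in log2 RMA units on the horizontal axis, with grey lines joining the lowest and highest array and genes ordered by their Mt-CFX difference from the control. The Mt-CFX marker lies left of the control for 10 of 15 mitotic kinesins, by up to 0.56 log2 at KIF18B, and for 3 of 12 transport kinesins.

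Of the transport kinesins, KIF1C, KIFC3 and KIFC2 were lower with Mt-CFX. KIF1C, a motor of vesicles and of integrins, was at 7.46 log2 in the control, 7.31 with CFX and 7.17 with Mt-CFX, which is 81.9% of the control. It lay below the control on both compound arrays. KIFC3, a minus-end motor linked to cell junctions, was at 6.45, 6.43 and 6.21 log2, and KIFC2 at 4.85, 4.85 and 4.73 log2. The conventional motor KIF5B, which moves mitochondria and many other cargoes, was at 10.02, 10.14 and 10.05 log2. Here CFX was the highest array, and the Mt-CFX difference from the control was 0.036 log2. KIF3A and KIF3B are partner motors of ciliary transport. KIF3A differed with Mt-CFX by 0.078 log2, and KIF3B was at 7.04 log2 on each array, with a Mt-CFX difference of 0.0038. KIF1B, a motor of synaptic vesicle precursors and mitochondria, was at 7.14 log2 in the control and at 7.18 on both compound arrays. Its other probe set was at 4.11 log2 on all 3 arrays, near the floor. KIF13A, at 6.62 log2, and KIF13B, KIF16B, KIF3C and KIF1A were each equal on all 3 arrays.

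The remaining kinesins, which include ciliary and microtubule-regulating motors, gave the highest differences of the family. KIF27, a relative of the ciliary kinesin KIF7, was at 6.02 log2 in the control, 6.15 with CFX and 6.49 with Mt-CFX, a 1.39-fold difference for Mt-CFX. Its other probe sets lay below the floor, with Mt-CFX differences of 0.48 and 0.024 log2. KIF21B, which limits microtubule growth, was at 4.16 log2 in the control and with CFX, near the floor, and at 4.41 with Mt-CFX. KIF24, which trims centriolar microtubules, was lower at −0.14. Members of 1 kinesin family could thus differ in opposite directions: in the kinesin 4 family KIF4A was at −0.54, KIF4B at −0.24, KIF21A at 0.00, KIF7 at 0.011, KIF21B at 0.25 and KIF27 at 0.47 log2. In the kinesin 14 family the 3 members above the floor, KIFC1, KIFC2 and KIFC3, were all lower, at −0.18, −0.13 and −0.24 log2.

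Of the 15 inner centromere genes, 7 were lower with Mt-CFX, 2 higher and 6 equal to the control, with a median of 0.00 log2. Of all 8868 genes 23.2% were lower, 23.9% higher and 52.9% equal. The widest differences were those of CENPI and CENPM, which share a subcomplex of the inner kinetochore, and of CENPX, which belongs to another. In the CENP-H, I, K and M group, which ties CENP-A chromatin to the rest of the complex, CENPI was at 8.14, 8.02 and 7.62 log2 on the control, CFX and Mt-CFX arrays, and CENPM at 6.47, 6.47 and 6.12. Their Mt-CFX differences were −0.52 and −0.35 log2, while CENPH and CENPK were equal on all 3 arrays. In the histone-fold group of CENP-T, W, S and X, CENPX was at 6.57, 6.59 and 6.19 log2, a Mt-CFX difference of −0.38, CENPW differed by −0.087 and CENPT was equal.

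CENPL, which with CENPN reads the CENP-A nucleosome, was at 6.75, 6.68 and 6.54 log2. CENPN was at 7.14 log2 in the control and with Mt-CFX and at 7.23 with CFX. The group of CENP-O, P, Q and U, a docking site for the kinase PLK1, held both higher members. CENPQ was at 5.99 log2 in the control and at 6.21 on both compound arrays, and CENPU at 7.09 in the control and at 7.25 on both. CENPP differed by −0.056 with Mt-CFX, and CENPO was equal. CENPA, the centromeric histone, was at 6.19 log2 in the control and with Mt-CFX, and CENPC, which binds it, differed by −0.014. CENPV was equal on all 3 arrays.

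The SKA complex, which keeps kinetochores attached to shortening microtubules, showed 3 different patterns for its 3 subunits. SKA1 was at 6.37 log2 in the control, 6.59 with CFX and 6.80 with Mt-CFX. It was higher on both compound arrays, and its Mt-CFX difference of 0.43 log2, 1.35-fold, was the highest among the 30 members that are not kinesins. SKA3 was at 7.82, 8.15 and 7.78 log2, highest with CFX, at 1.26-fold the control. SKA2 was at 7.02 log2 on all 3 arrays.

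Among the kinases, PLK4, which starts centriole duplication, was at 6.37 log2 in the control, 6.71 with CFX and 6.11 with Mt-CFX. The compounds lay on opposite sides of the control, at 0.34 and −0.26 log2. PLK2, a stress-inducible relative, was at 5.80, 5.92 and 5.39 log2, and its Mt-CFX value was 75.1% of the control. PLK1, the main mitotic Polo-like kinase, was at 9.16 log2 in the control, 9.19 with CFX and 8.999 with Mt-CFX, a Mt-CFX difference of −0.16 log2. PLK3 was the exception among them, at 4.86, 4.90 and 5.03 log2, highest with Mt-CFX, and PLK5 was equal on all 3 arrays at 4.64 log2.

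AURKA, the centrosome and spindle kinase, was at 6.87 log2 in the control and with CFX and at 6.57 with Mt-CFX, a difference of −0.30. AURKB, the catalytic subunit of the chromosomal passenger complex, was at 8.28, 8.31 and 8.28 log2, so the Mt-CFX value equalled the control, and AURKC was at 4.62 log2 on all 3 arrays. The checkpoint kinase BUB1 was at 8.33, 8.39 and 8.13 log2, and BUB1B, which encodes the checkpoint protein BubR1, was at 6.73, 6.73 and 6.51. Both were lowest with Mt-CFX, with differences from the control of −0.20 and −0.22 log2. BUB3, their shared binding partner, was at 9.04 log2 in the control and at 9.06 on both compound arrays.

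**Figure D2:**
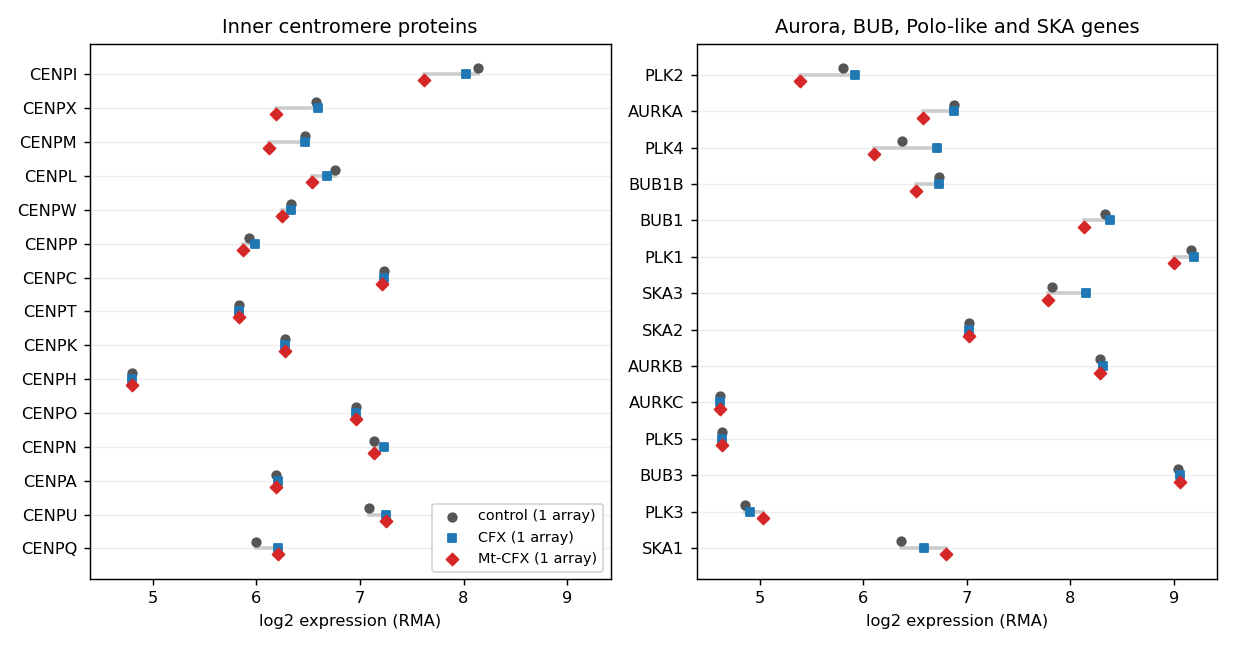
Level of each inner centromere gene (left) and of each Aurora, BUB, Polo-like and SKA gene (right) on the 3 arrays, in log2 RMA units on the horizontal axis, ordered by the Mt-CFX difference from the control. CENPI, PLK2, CENPX and CENPM lie farthest to the left of the control with Mt-CFX, and SKA1 farthest to the right at 6.80 against 6.37 log2.

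The size of these differences was small. None of the 65 members (0) reached 2-fold or 1.5-fold against the control, with either compound. With Mt-CFX 2.71% of all 8868 genes reached 1.5-fold and 0.564% reached 2-fold in either direction, and with CFX 0.147% and 0.0226% did. A size of 1.2-fold was added after the values were seen. With Mt-CFX, 11 members were at least 1.2-fold lower, 16.9% of the 65, against 5.73% of all genes. They were KIF18B, KIF4A, CENPI, PLK2, KIF11, CENPX, KIF20A, CENPM, AURKA, KIF1C and PLK4. At least 1.2-fold higher were 2 members, KIF27 and SKA1, or 3.08% against 5.99% of all genes. At any size 29 members lay below the control (44.6%, against 23.2% of all genes) and 13 above it (20.0%, against 23.9%). The other 23 had the same value, against 52.9% of all genes.

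With CFX most of the members that differed were higher. At any size 30 members were higher than the control (46.2%, against 25.8% of all genes), 8 were lower (12.3%, against 15.0%) and 27 tied (against 59.2%). Re-centring by a smooth curve on expression, which moved members by at most 0.025 log2, turned the ties into small differences and gave 28 higher and 37 lower, which is 43.1% and 56.9% of members against 25.2% and 74.8% of all genes. The members at least 1.2-fold higher were PLK4 and SKA3, 3.08% of the 65 against 1.76% of all genes, and 0 members were 1.2-fold lower, against 1.29%. The lower members were KIF4A, KIF1C, CENPI, CENPL, KIF18B, KIF4B, KIF22 and KIFC3, from −0.21 to −0.025 log2. The mitotic and transport kinesins had the same median with CFX, 0.00 log2.

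**Figure D3:**
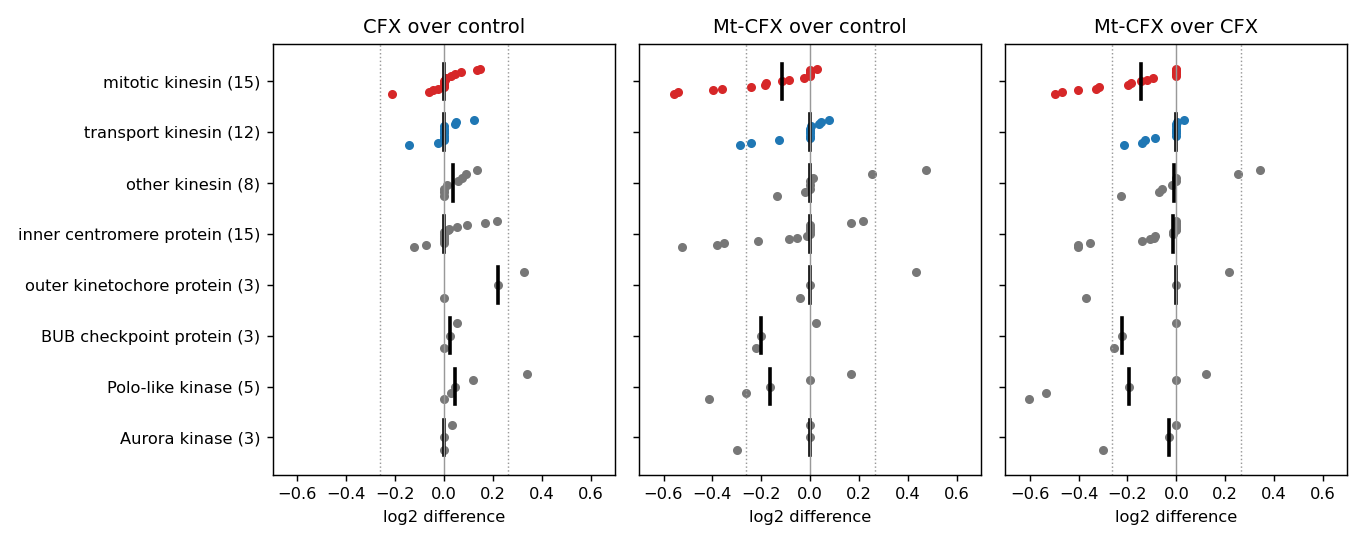
Log2 difference of each member above the floor (points) by class, with the number of genes in brackets, for the 3 comparisons; black bars are class medians and dotted lines mark 1.2-fold. The mitotic kinesins have a median of 0.00 with CFX, −0.12 with Mt-CFX and −0.15 between the compounds, and the transport kinesins one of 0.00 in each.

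The compounds were also compared directly, both at 10 µM and 72 h. These comparisons share arrays with the ones above, and no interval of a difference can be given with 1 array per compound. With Mt-CFX 35 of 65 members were lower than with CFX (53.8%, against 25.2% of all genes), 6 were higher (9.23%, against 20.1%) and 24 tied (against 54.7%). After the same re-centring 42 were lower (64.6%, against 43.1% of all genes) and 22 higher (33.8%, against 54.5%). PLK4 was the 1 member that reached 1.5-fold, at −0.60 log2 or 65.8% of the CFX value, where 1.03% of all genes were 1.5-fold lower. None (0) reached 2-fold, which 0.383% of all genes did in either direction. At 1.2-fold 12 members were lower (18.5%, against 5.76%) and 1 was higher, KIF27 at 0.34 log2 (1.54%, against 4.68%).

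After PLK4 the members with the widest differences between the compounds were PLK2 at −0.53, KIF18B at −0.50, KIF11 at −0.47, CENPX at −0.40, CENPI at −0.40 and KIF20A at −0.40 log2. SKA3 was at −0.37 log2 and KIF20B at −0.32. The 6 higher members were KIF27, KIF21B at 0.25, SKA1 at 0.22, PLK3 at 0.12, KIF3A at 0.030 and KIF3B at 0.0038. Of the 15 mitotic kinesins 10 lay below their CFX value, 0 above it and 5 at it, with a median of −0.15 log2. Of the 12 transport kinesins 4 lay below, 2 above and 6 at the CFX value.

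**Figure D4:**
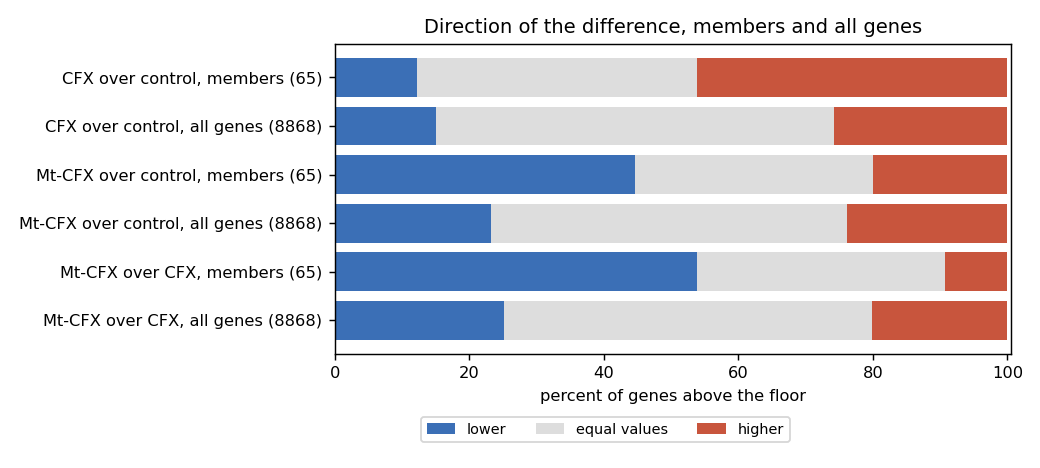
Percent of genes (horizontal axis) that were lower, equal or higher in each comparison, for the 65 members and for all 8868 protein-coding genes above the floor. With Mt-CFX over control 44.6% of members were lower against 23.2% of all genes, and with CFX over control 46.2% were higher against 25.8%.

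Other genes of the same machinery were taken from lists and not from the symbol rule. For every list, the shares over all 8868 genes were 23.2% lower and 23.9% higher with Mt-CFX. With CFX they were 15.0% lower and 25.8% higher. Counts are at any size and include small differences, such as −0.022 log2 for HMMR with Mt-CFX. Of 9 measured spindle and midzone partners, 9 were lower with Mt-CFX than in the control, with a median of −0.20 log2, and 7 were higher and 0 lower with CFX. RACGAP1, the partner of KIF23 in the complex that places the cleavage furrow, was at 4.85 log2 in the control, 5.09 with CFX and 4.26 with Mt-CFX. It had the lowest difference of this list against the control, at −0.58, and differed by −0.82 log2 between the compounds. RACGAP1 also had the weakest signal of this list, and its Mt-CFX value lay near the floor. Of 8 spindle checkpoint genes 6 were lower with Mt-CFX and 0 higher, led by KNTC1 at −0.23. Among 3 measured genes of the microtubule-binding kinetochore core, KNL1, the scaffold on which the BUB proteins gather, was at −0.35 and NDC80 was equal on all 3 arrays.

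Of the 6 chromosomal passenger partners 5 were lower with Mt-CFX and 0 higher, and INCENP, the scaffold that activates AURKB, was lowest at −0.45 log2. Condensin and cohesin genes, which compact and hold the chromosomes, had 5 of 7 lower and 0 higher, led by SMC2 at −0.36. The anaphase promoting complex, which ends mitosis by marking proteins for destruction, had a median of −0.0041 log2 over 16 genes, with 8 lower, 1 higher and 7 equal. The higher one was ANAPC16, at 6.73, 7.13 and 7.22 log2. The 3 measured genes for loading CENP-A were equal on all 3 arrays. Of 10 measured regulators of mitotic genes 6 were lower and 2 higher, with TFDP1 at −0.45 as the lowest.

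Partners of the transport motors were mostly tied. Of 11 measured adaptors 9 were equal between Mt-CFX and the control, and the kinesin light chains KLC1 and KLC2 were among them. Of all genes, 52.9% were equal in this comparison. The light chain gene KLC4, near the floor, was higher by 0.12 log2. The lower one was KIFBP, a protein that binds kinesin motor domains and blocks them, at 8.21 log2 in the control, 8.43 with CFX and 7.76 with Mt-CFX. KIFBP differed by −0.45 from the control and by −0.67 between the compounds. Dynein and dynactin serve transport in the opposite direction. Of 10 such genes, 5 were higher with Mt-CFX and 0 lower, with NDEL1 highest at 0.32 log2. Of all genes, 23.9% were higher and 23.2% lower. Tubulin genes were not analysed here.

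Set beside the promoter letters shown above, the 10 mitotic kinesins that were lower with Mt-CFX held a CHR match in 9 cases, KIF20A being the exception, and a CCAAT box in 10. Of the 5 that were not lower, 2 held a CHR match and 1 a CCAAT box. The lower ones include KIF4B, whose probes may read KIF4A transcripts. Over all members above the floor with a promoter in the table, 17 of the 24 lower ones and 7 of the 29 others held a CHR match. These members include the mitotic kinesins, so gene class and letters cannot be told apart in these counts. A CCAAT box was in 16 of the 24 and 13 of the 29, and the E2F-like letters were in 10 and 9. The transport kinesin KIF5B, at 0.036 log2 with Mt-CFX, held a CHR match and a CCAAT box. SKA1, at 0.43 log2 with Mt-CFX, and SKA3, at −0.041, each held a CHR match and an E2F-like match. These counts describe sequences beside single arrays, and whether the letters bear on the differences was not tested.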

How the data were processed

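Per the labels' protocols, biotin-labelled sense cDNA was made from total RNA with GeneChip WT kits. The authors deposited log2 values for each probe set. The submitters' processing notes name RMA and Affymetrix Expression Console; versions and the array's genome build are not given in the sources used here. RMA makes the arrays' distributions alike (the widest gap between sorted values was 0.245 log2), so a difference in total RNA would not show.

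Of 53617 probe sets, 16098 had 1 gene symbol in the platform annotation and the others were unnamed here. Genes were kept when the highest array reached 3.89 log2. Log2 differences were counted by sizes of 2-fold and 1.5-fold, and 1.2-fold added later. Any member could be named. Levels on all arrays were given for members 1.5-fold different in any comparison, for the lowest and highest of each comparison, for every Aurora, BUB, Polo-like and SKA gene and for 5 transport kinesins of highest mean, with further examples chosen after their values were seen. From the lists, the lowest or highest gene was named, with a few others chosen likewise. Members and lists were chosen with earlier results of these data known. In the control, 67.8% of all probe sets, named or not, had exactly the same value as at least 1 other probe set. Counting at 1.2-fold was tested on simulated data without exact ties, and the counts at any size were not tested in this way. Promoters were found for 58 of 72 members. Alternatives changed the floor, the probe set summary, the scaling, the size and the kinesin classes. The number of arrays limits the precision. Python 3.11.15, numpy 2.4.6, pandas 2.3.3, statsmodels 0.14.6 and matplotlib 3.10.9 were used.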

Additional observations from a re-analysis of the deposited data

How the results depend on the processing

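With 1 array per condition no array could be left out, and no paired analysis was possible because the conditions share fewer than 2 replicate numbers. The alternatives changed the floor, the probe set summary, the scaling, the fold size and the kinesin classes. Of 168 alternative values for counts and medians of the members, 157 stayed close to the main value. Close means within 1.5 times for a count and within 0.05 log2 for a median. Many of these values set a count of 0 against 0, so they say little about how stable the other results are. The median of the members in Mt-CFX over CFX was −0.087 log2 with the floor at the 75th percentile, which leaves 53 members, against −0.020. When a gene's probe sets were averaged, the members at least 1.2-fold higher numbered 1 in Mt-CFX over control and 0 in Mt-CFX over CFX. Lowess re-centring, with a span of 0.3, gave 37 members lower in CFX over control and 22 higher in Mt-CFX over CFX, because ties became small differences. Where 0 members were 2-fold different, 1.5-fold gave 1 lower in Mt-CFX over CFX. At 1.2-fold there were 2 higher in CFX over control, 11 lower and 2 higher in Mt-CFX over control, and 12 lower and 1 higher in Mt-CFX over CFX. Adding CENPE to the mitotic class and leaving out AURKAIP1 could not be run, since neither had a named probe set.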
